A study of Mus musculus with 45 samples.

Results

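Gene expression in injured mouse hearts 4 weeks after the end of a transient overexpression of ERBB2 was compared with that in injured wild-type hearts. The members were chosen by group alone: the 4 libraries titled OE, MI and T3 and the 4 titled WT, MI and T3, 8 of the 45 libraries of the study. The study profiled whole hearts by RNA sequencing at 3 times (T1, during the overexpression; T2, 2 weeks after it; T3, 4 weeks after it), in hearts with and without the transgene and with MI or sham treatment. OE hearts carried a transgene for transient overexpression of ERBB2 in cardiomyocytes and WT hearts did not; no other allele, agent or age is given in the labels, which also do not name the promoter that drives the transgene or give the order of injury and overexpression. For comparison, 7 sham libraries of T3 (3 OE, 4 WT) and 6 MI libraries of T2 (3 OE, 3 WT) were used, none of which is shared with the 8 libraries. The labels number the samples of a group and do not say that each is a separate animal, so a p-value here reflects how much the samples vary, which may be technical. In the tests of genes this spread was estimated from all 29 libraries of T2 and T3, not from the compared groups alone. They also include 4 OE and 4 WT sham libraries of T2.

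ERBB2 is a receptor tyrosine kinase that has no ligand of its own and signals in pairs with other ERBB receptors, which neuregulins bind; in heart muscle this signalling drives growth and, when strong, loss of the mature muscle phenotype and re-entry into the cell cycle. The design text of the study names T3 the redifferentiated stage. The mature phenotype rests on ion channels that shape the action potential, on connexins that couple the cells, on calcium release at the junction of membrane and sarcoplasmic reticulum, and on oxidation of fat, ketone bodies and other fuels. After an infarct, muscle is lost and a scar of collagen is laid down by fibroblasts, and the surviving muscle raises natriuretic peptides and other stress genes.

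The values were the authors' normalized counts, read counts divided by a factor per library. The 8 libraries held 14199741 to 18344130 reads in genes. Heart muscle was evident in all 8 libraries from Myh6, the main heavy chain of adult mouse heart myosin, whose normalized count lay between 225916 and 289947. The target of the transgene, Erbb2, had normalized counts of 206, 192, 185 and 219 in WT MI replicates 1 to 4 and of 207, 232, 247 and 246 in OE MI replicates 1 to 4. The groups overlapped, and Erbb2 was not called (log2 fold change 0.22 ± 0.09 SE, limma adjusted p = 0.205, n = 4 per group), so its level at T3 does not check the labels.

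Many named genes overlap another annotated gene, and the strand setting of the counting was not found in the labels, so that reads of overlapping genes cannot be told apart: this holds for 28 of the 90 called genes that the naming rule selects, among them Gja5, Angpt1, Casq1, Bdh1 and Mid1ip1. Genes were tested with limma on log2(normalized count + 1), so that a fold change understates the change of low genes, and were called at an adjusted p under 0.05. Between OE and WT in MI hearts at T3, 510 of 15533 genes were called, 3.28% of those tested: 186 were higher in OE hearts (1.2%) and 324 lower (2.09%). The change was at least 2-fold in 81 of them. The libraries of the groups did not overlap for 1443 genes, 9.29% of those tested. With scaling by library totals, in place of the authors' factors, 701 genes were called, of which 514 were higher and 187 lower. Values below are under the authors' factors. The authors' deposited table, with its limits on adjusted p, fold and count, held 203 changed genes, 55 higher and 148 lower.

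**Figure D1:**
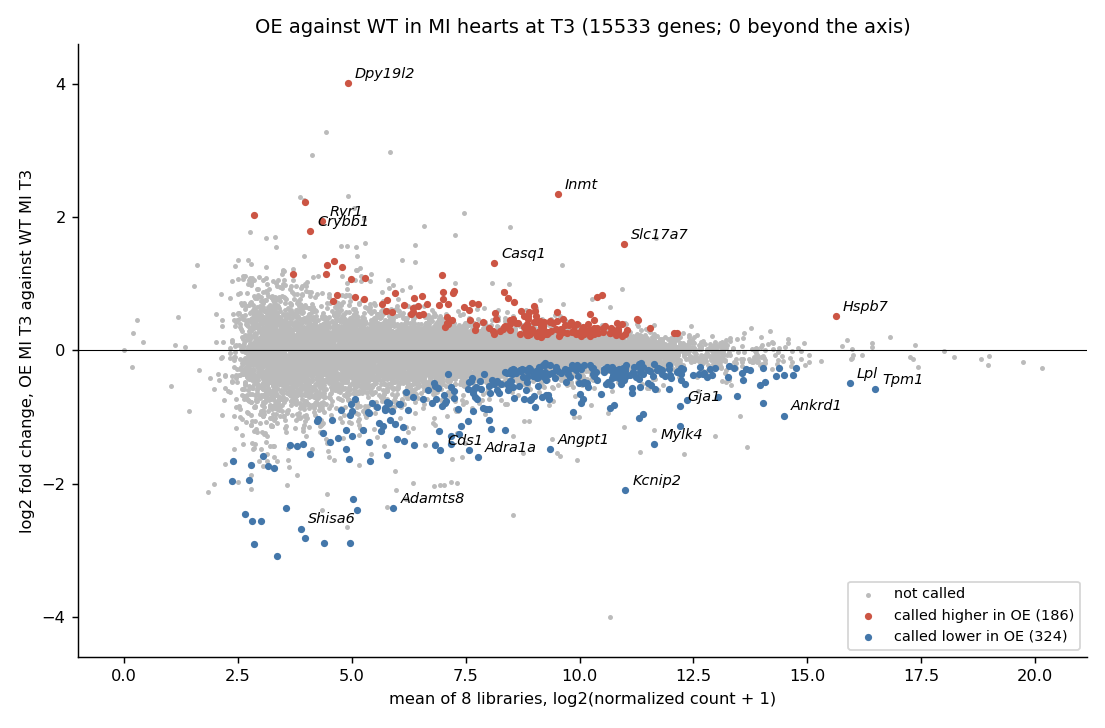
Log2 fold change of OE against WT in MI hearts at T3 (vertical axis) against the mean level over the 8 libraries (horizontal axis, log2 of normalized count + 1), with a point for each of 15533 genes. The 186 genes called higher and the 324 called lower are coloured; Kcnip2, Inmt, Slc17a7 and Dpy19l2 stand apart from genes of like level.

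The libraries differed in ways the labels do not give. By Xist, WT MI replicates 1 and 3 and OE MI replicate 4 were male hearts and the other 5 female. Rag1, a recombinase of immature lymphocytes as found in the thymus, had a normalized count of 727 in OE MI replicate 1 and 176 in WT MI replicate 2 and was at 0 in the other 6, and Dntt and Prss16 marked the same pair. Myl7, the regulatory light chain of atrial muscle, stood at 676 and 182 in OE MI replicates 1 and 2 against 2910 to 3779 in OE MI replicates 3 and 4 and 2171 to 4414 in WT MI hearts. Adipoq, of fat cells, was highest in OE MI replicate 1 at 1597 and ranged from 36.4 to 658 in the other 7. The part of these differences in the results was not tested, but counts were repeated with them taken into account, as alternatives chosen after seeing the data: 507 genes were called with sex as a covariate (459 of the 510), 446 without the 2 libraries with Rag1 (301 of the 510), 150 in female hearts alone (129 of the 510) and 233 with the log2 level of Myl7 as a covariate (210 of the 510). The fit of female hearts dropped males from the compared groups only, so it also rests on 5 of the 8 libraries. Libraries of T2 with Rag1 stayed in the fit without the 2 (341 in OE MI replicate 4, 174 in WT MI replicate 3).

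**Figure D2:**
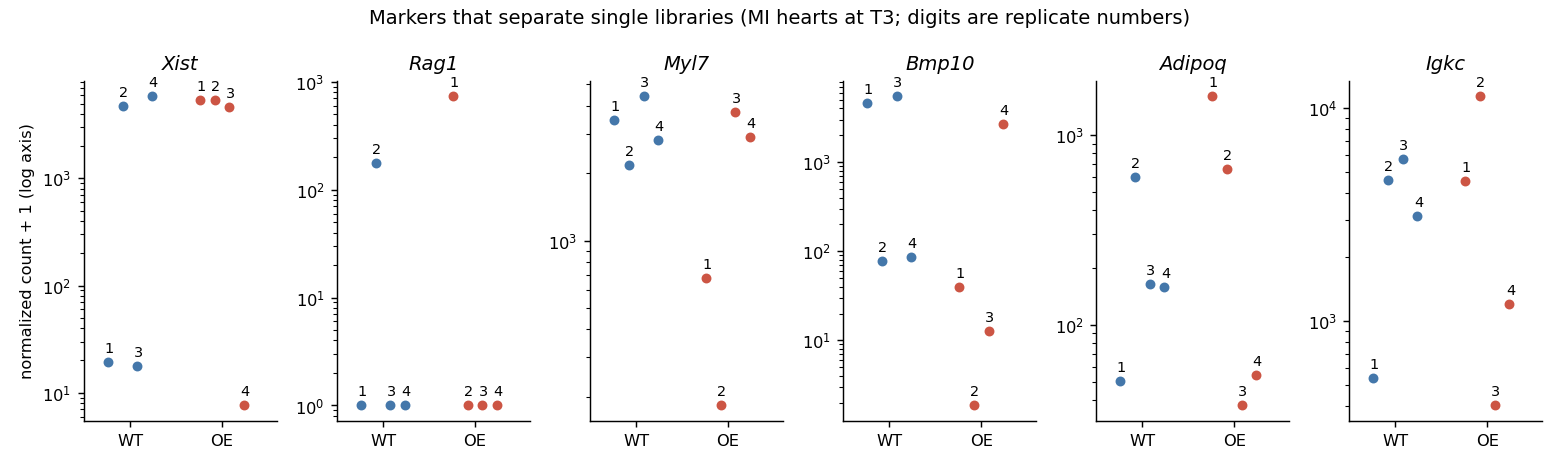
Normalized count + 1 (log axes) of Xist, Rag1, Myl7, Bmp10, Adipoq and Igkc in each WT (blue) and OE (red) library of MI hearts at T3, with the replicate number above each point. Rag1 is above 0 in WT replicate 2 and OE replicate 1, and Myl7 is low in OE replicates 1 and 2.

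The gene with the smallest p was Kcnip2, on chromosome 19 (GRCm38 chr19:45791839-45816061, minus strand), which encodes KChIP2, the accessory subunit of the Kv4 channels that carry the fast transient outward potassium current. Its normalized count was 3006, 3837, 2962 and 3552 in WT MI replicates 1 to 4 and 806, 853, 723 and 720 in OE MI replicates 1 to 4. Each OE heart was far below each WT heart, and the spread within a group was small beside the gap. Kcnip2 fell by 2.10 ± 0.14 on the log2 scale (4.29-fold; limma adjusted p = 1.36e-09), and its adjusted p stayed under 0.05 in each of 23 alternatives. The channel subunits that it accompanies were not called: Kcnd2 had a log2 fold change of -0.38 ± 0.21 and Kcnd3 of 0.19 ± 0.10. The tested genes next to Kcnip2 on the chromosome, Mgea5, Npm3, 9130011E15Rik and Hps6, were not called, with log2 fold changes of -0.11 to 0.29.

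Inmt (GRCm38 chr6:55170626-55175043, minus strand), which encodes a methyltransferase of indole amines and other small amines, had the second largest rise among named genes. Its normalized count was 210, 321, 230 and 189 in WT MI replicates 1 to 4 and 1215, 1409, 1507 and 766 in OE MI replicates 1 to 4. The lowest OE heart, replicate 4, was more than 2-fold above the highest WT heart. Inmt rose by 2.35 ± 0.23 on the log2 scale (5.08-fold; limma adjusted p = 4.79e-06) and remained called in each of the 23 alternatives. Of its neighbours, Fam188b, 28339 bases away on the other strand, had a log2 fold change of 0.49 ± 0.16 (adjusted p = 0.0913) and Aqp1 of 0.36 ± 0.13, while Crhr2 had -0.08 ± 0.11.

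Adra1a, the alpha-1A adrenergic receptor (GRCm38 chr14:66635251-66771168, plus strand), had normalized counts of 352, 367, 281 and 294 in WT MI replicates 1 to 4 and of 115, 129, 61.0 and 134 in OE MI replicates 1 to 4. All 4 OE hearts were below all 4 WT hearts, and OE replicate 3 was the lowest. It fell by 1.60 ± 0.28 on the log2 scale (limma adjusted p = 0.00168). Of its tested neighbours on the chromosome, Trim35 rose by 0.30 ± 0.06 (adjusted p = 0.00828) and Ptk2b, a cytoplasmic tyrosine kinase, by 0.78 ± 0.13. Gm10032, 13311 bases away on the same strand, had a log2 fold change of -1.71 ± 0.50 (adjusted p = 0.0558), and Dpysl2 of 0.04 ± 0.14.

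Kcnip2 and Inmt, the fall with the smallest p and the gene called for the interaction, are shown with bases before their start (build GRCm38.p6, minus strand, 5′ to 3′). The windows were the 250 bases before the RefSeq start, without bases inside the gene as annotated by GENCODE. Distances are counted from the GENCODE start, which differs from the RefSeq start. For Inmt 197 of the 250 bases remained, so its RefSeq start lies inside the GENCODE gene. The motifs were searched on both strands. The TATA box was spelled TATAAA. The motif of GATA factors was spelled AGATAA and that of TEAD factors was written as GGAATG. The motif bound by ETS factors was taken to be CCGGAAG, and for the E-box the letters used were CACGTG. No match overlapped another in these windows, and matches are in capitals. They cover chr19:45816064-45816313 and chr6:55175044-55175240.
Kcnip2: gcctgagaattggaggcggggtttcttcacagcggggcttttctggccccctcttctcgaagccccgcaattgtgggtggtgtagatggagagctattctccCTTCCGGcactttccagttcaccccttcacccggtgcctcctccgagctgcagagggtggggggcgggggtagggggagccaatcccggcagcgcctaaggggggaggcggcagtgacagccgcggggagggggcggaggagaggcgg
Inmt: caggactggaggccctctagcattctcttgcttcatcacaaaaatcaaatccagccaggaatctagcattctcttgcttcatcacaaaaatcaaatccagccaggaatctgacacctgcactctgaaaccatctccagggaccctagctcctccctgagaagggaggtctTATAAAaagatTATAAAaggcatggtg
The Kcnip2 window held 1 ETS match, on the opposite strand and 150 bases before the gene's GENCODE start, and was 66.8% G or C. The Inmt window held 2 TATA boxes, 27 and 16 bases before the GENCODE start and farther from the RefSeq start, and was 45.7% G or C. A stretch of 49 bases occurred in it in 2 overlapping copies. Of 32851 windows of 250 bases before a RefSeq start, 6.91% held the ETS letters and 12.4% the TATA box, 9.99% the GATA, 12.6% the TEAD and 6.02% the E-box letters. A match describes the letters and is no evidence of binding.

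Dpy19l2, a member of a family of C-mannosyltransferases known for its part in sperm head formation, was nearly silent in WT hearts. Its normalized count was 2.78, 3.02, 0.94 and 3.90 in WT MI replicates 1 to 4 and 56.5, 48.8, 51.0 and 65.0 in OE MI replicates 1 to 4. The groups were far apart (log2 fold change 4.01 ± 0.31, limma adjusted p = 2.86e-09), with the WT values resting on a few reads. Its relative Dpy19l1, the next tested gene on the chromosome, rose by 0.47 ± 0.12 (adjusted p = 0.0219). Slc17a7, which encodes the vesicular glutamate transporter VGLUT1, had 855, 1319, 1030 and 696 in WT MI replicates 1 to 4 and 2297, 2121, 2808 and 4950 in OE MI replicates 1 to 4. The groups did not overlap and OE replicate 4 was highest (log2 fold change 1.60 ± 0.20, limma adjusted p = 6.83e-05). Its call was lost with the 8 libraries fitted alone and with a replicate block (limma adjusted p up to 0.273).

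**Figure D3:**
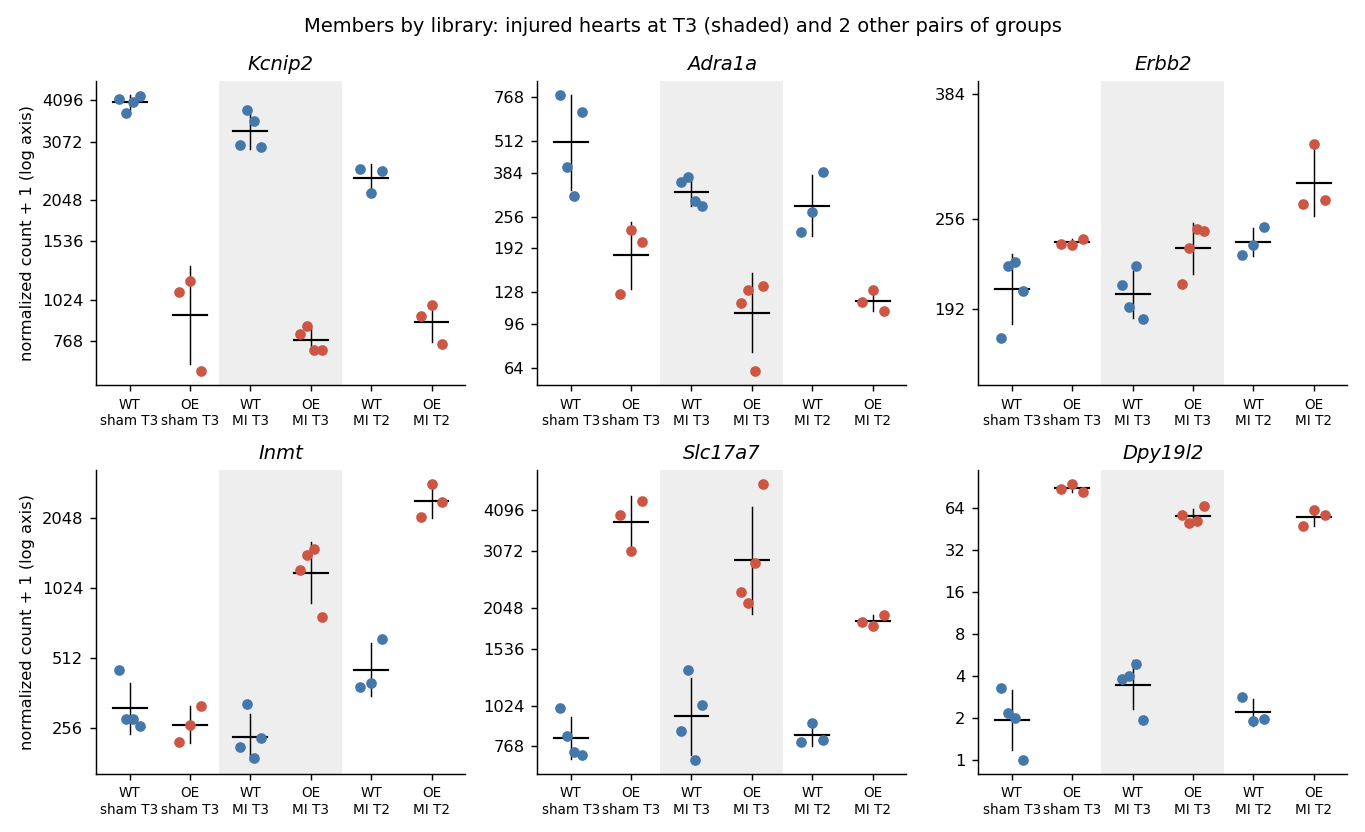
Normalized count + 1 per library (log axes) of Kcnip2, Adra1a, Erbb2, Inmt, Slc17a7 and Dpy19l2 in sham hearts at T3, MI hearts at T3 (shaded) and MI hearts at T2, for WT (blue) and OE (red). Bars give the mean and vertical lines 1 SD of the log2 values; in MI hearts at T3 the groups do not overlap for any of these but Erbb2, and Inmt overlaps between WT and OE in sham hearts.

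Genes of the action potential and of cell coupling were among those that fell. Each list count here and below is to be read beside the shares over all genes tested, 2.09% called lower and 1.2% called higher. The lists were chosen with earlier results of these data known, so a share above these is no test of a list. Of 15 tested sodium channel and connexin genes 4 fell and 0 rose, with a median log2 fold change of -0.08 beside 0.00 over all genes. Gja1, connexin 43 of the ventricular gap junction, was at 5999, 6474, 4971 and 6622 in WT MI replicates 1 to 4 and at 3663, 3938, 3533 and 2480 in OE MI replicates 1 to 4. No OE heart reached the lowest WT heart, and Gja1 fell by 0.83 ± 0.13 on the log2 scale (limma adjusted p = 0.000559). Gja5, connexin 40 of atrium and conduction fibres, fell by 0.91 ± 0.15, with 123 to 165 in OE against 245 to 276 in WT hearts.

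Of 28 tested potassium channel genes 3 fell and 1 rose (median log2 fold change -0.08). Beside Kcnip2, Kcne1, the subunit that slows the KCNQ1 channel, fell by 1.66 ± 0.33, from 36.5 to 87.7 in WT to 8.82 to 28.3 in OE hearts, and Kcnk3, the background channel TASK-1, fell by 0.28 ± 0.06. Kcnj12, the inward rectifier Kir2.2, rose by 0.52 ± 0.13, with 574 to 650 in OE against 383 to 514 in WT hearts. The Kcnk3 call was lost without WT replicate 1 (adjusted p = 0.0507), and that of Kcnj12 without WT replicate 1, 3 or 4 or OE replicate 3 or 4 (0.0509 to 0.0827). Kcnj14, another inward rectifier and among the largest rises, had 11.1 to 15.1 in WT and 23.1 to 47.4 in OE hearts (log2 fold change 1.35 ± 0.36, limma adjusted p = 0.0325); only without WT replicate 2 or OE replicate 2 did its adjusted p remain under 0.05 when 1 library was left out, the others giving 0.0633 to 0.0951.

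Among 35 tested adrenergic and muscarinic signalling genes, 3 fell, among them Adra1a and Akap5, and 1 listed gene rose, which was Inmt, an enzyme and not a receptor or effector of that signalling. The median log2 fold change of the list was -0.08. Akap5 anchors protein kinase A near the channels; it fell by 0.79 ± 0.22 (limma adjusted p = 0.0467). Its call was lost without any of 6 of the 8 libraries, those other than WT replicate 4 and OE replicate 4 (adjusted p up to 0.163).

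Of 24 tested calcium handling genes 3 fell and 1 rose (median log2 fold change -0.07). Jph2, which holds the cell membrane close to the sarcoplasmic reticulum, was at 8207, 8023, 8075 and 8250 in WT MI replicates 1 to 4 and at 5625, 5759, 6616 and 6697 in OE MI replicates 1 to 4, a fall of 0.40 ± 0.07. Ryr2, the cardiac calcium release channel, fell by 0.52 ± 0.11 (OE 11620.0 to 14035, WT 17632 to 21140.3); its adjusted p was 0.0583 without the 2 libraries with Rag1 and 0.0503 in female hearts alone. Slc8a1, the sodium and calcium exchanger, fell by 0.56 ± 0.15, with OE replicate 4 at 2138 above WT replicate 2 at 2079. A pair of genes better known from skeletal muscle rose, while Jph1 of the calcium handling list had a log2 fold change of -0.03 ± 0.14 (adjusted p = 0.945): Casq1, the calsequestrin of fast skeletal muscle, was at 298 to 533 in OE and 84.7 to 216 in WT hearts (a rise of 1.31 ± 0.31), and Ryr1, the release channel of skeletal muscle, at 14.6 to 44.1 against 3.90 to 9.27 (a rise of 1.94 ± 0.47). Casq1 lost its call without WT replicate 4 or OE replicate 1 or 2 (adjusted p 0.0589 to 0.0725), Ryr1 without WT replicate 4 or OE replicate 2 or 4 (0.0555 to 0.0663), and Slc8a1 without any library but WT replicate 2 or OE replicate 4 (up to 0.129).

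Of 22 tested genes of the adult sarcomere and Z-disc 4 fell and 0 rose (median log2 fold change -0.10). Tpm1, the alpha-tropomyosin of the thin filament, was at 102919, 117375, 107283 and 111165 in WT MI replicates 1 to 4 and at 71659, 78411, 78349 and 64554 in OE MI replicates 1 to 4, a fall of 0.59 ± 0.08 (1.50-fold; limma adjusted p = 0.000135). Pdlim5 and Myoz2, both of the Z-disc, fell by 0.40 ± 0.08 and 0.34 ± 0.06, and Lmod3, which nucleates thin filaments, by 0.48 ± 0.12, with OE replicate 4 inside the WT range. Mylk4, a myosin light chain kinase of heart and skeletal muscle, fell by 1.41 ± 0.15, from 3828 to 5148 in WT to 1355 to 2423 in OE hearts. Of 10 tested skeletal-type muscle genes 2 fell, Ckm, the muscle creatine kinase, by 0.37 ± 0.08 and Myl1, an essential light chain of fast muscle that atria also express, by 1.18 ± 0.29, and 0 rose; Tnnc2 and Myog were at 0 in all 8 libraries. Myl1 in OE replicate 4 (228.1) was at the level of WT replicate 4 (227), and its call was lost without WT replicate 1 or 3 or OE replicate 1 or 2 (0.065 to 0.0929). That of Lmod3 was lost without WT replicate 2 or 3 or OE replicate 1 or 2 (0.0742 to 0.107).

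Of 24 tested fetal and dedifferentiation markers 4 fell and 0 rose, and the median log2 fold change was -0.29, with 22 of 24 below 0. Ankrd1, a stress-induced ankyrin repeat protein of sarcomere and nucleus and also a target of YAP, was at 25120.4, 25159, 35390 and 35329 in WT MI replicates 1 to 4 and at 18234, 19931, 13739 and 10439 in OE MI replicates 1 to 4. All OE hearts were below all WT hearts, a fall of 0.98 ± 0.24 (limma adjusted p = 0.0234). Acta2, smooth muscle actin, fell by 1.01 ± 0.23 (OE 1322 to 2414, WT 2651 to 4434), Fhl2 by 0.39 ± 0.08 and Csrp3 by 0.29 ± 0.08. Left-out libraries ended the calls of Ankrd1 (WT replicates 3 and 4, OE replicates 3 and 4; up to 0.081), Acta2 (WT replicate 4 and OE replicate 1; up to 0.0558) and Csrp3 (WT replicates 1, 2 and 3, OE replicates 1 and 2; up to 0.143). Of 21 hypertrophy and stress markers 2 fell, Ankrd1 and the metallothionein Mt1 (-0.50 ± 0.12), and Hspb7, a small heat shock protein of heart muscle, rose by 0.51 ± 0.09 (OE 53593 to 64297, WT 38575 to 45269). Mt1 was not called without WT replicate 1 or 3 or OE replicate 1 or 3 (up to 0.0885).

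The natriuretic peptide genes, chosen after their values were seen, did not pass the threshold with limma, but some alternatives called them. Nppa was called in 5 of 23, with an adjusted p of 0.00937 with DESeq2, and Nppb in 1, with 0.037 with DESeq2; the authors' deposited table gives adjusted p of 0.0125 and 0.0489. Nppa was at 25249, 11973, 21943 and 16935 in WT MI replicates 1 to 4 and at 5347, 3839, 11472 and 8457 in OE MI replicates 1 to 4. The groups did not overlap (log2 fold change -1.45 ± 0.41, limma adjusted p = 0.0516), and within OE the order of the libraries was that of Myl7. In WT hearts, with the same WT MI libraries, MI against sham at T3 gave 2317 called genes (14.9%), 8.25% of those tested higher and 6.67% lower. Nppb, at 1669 to 1965 in OE and 2054 to 6334 in WT hearts, had a log2 fold change of -1.19 ± 0.46 (adjusted p = 0.171). The atrial genes as a whole gave 1 fall, Gja5, among 20 tested, with a median log2 fold change of -0.39. With Myl7 as a covariate the median was -0.09, but Myl7 is itself of this list. That value therefore cannot show what part atrial muscle had in the falls. The summed level of the list was 41170 to 68360 in OE and 60592 to 90734 in WT hearts.

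Enzymes of fuel use gave mostly falls of small size. Of 29 tested genes of the TCA cycle and of branched-chain and ketone catabolism 5 fell and 1 rose (median log2 fold change -0.09). Bdh1 and Oxct1, which carry out successive steps of ketone body oxidation, both fell: Bdh1 was at 4217, 2897, 3603 and 3569 in WT MI replicates 1 to 4 and 1430.3, 1742, 2017 and 2173 in OE MI replicates 1 to 4 (a fall of 0.96 ± 0.12), and Oxct1 fell by 0.48 ± 0.06 (OE 13362 to 14895, WT 18901 to 21512). Acss1, which activates acetate in mitochondria, fell by 0.57 ± 0.08. Dld, a subunit of several dehydrogenase complexes, fell by 0.25 ± 0.06 and Bckdk, the kinase that restrains branched-chain oxidation, rose by 0.25 ± 0.06; these calls were lost without OE replicate 1 for Dld (0.0597) and without WT replicate 1 or 3 or OE replicate 3 or 4 for Bckdk (0.0582 to 0.109). With scaling by library totals 2 of the list were higher and 2 lower.

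Lpl, the lipase that frees fatty acids from circulating fat, was the 1 gene of 38 for fatty acid uptake and oxidation that fell (0.49 ± 0.08; OE 49873 to 56628, WT 71375 to 74407). Of 25 glycolysis genes 3 fell and 0 rose: Hk2, the hexokinase of striated muscle, by 0.36 ± 0.06 (OE 3032 to 3198, WT 3802 to 4195), Pfkfb1 by 1.26 ± 0.31 and Eno1 by 0.68 ± 0.10. Eno1 has a near-identical copy, Eno1b, at 20.9 to 36.0 in OE and 0 to 45.0 in WT hearts, so its value is uncertain. Pfkfb1 was not called without WT replicate 1 or 2 or OE replicate 2, 3 or 4 (up to 0.0858). Pygb, a glycogen phosphorylase, fell by 0.69 ± 0.08 (OE 7540.2 to 9388, WT 11920 to 15773). Of 33 nuclear genes of oxidative phosphorylation 1 fell, Ndufb8 (-0.28 ± 0.07), and the median log2 fold change was -0.13, with 29 of 33 below 0; with library totals the median was -0.05 and no gene was called. Ndufb8 lost its call without WT replicate 2 or 3 or OE replicate 1 or 2 (up to 0.117). The share of reads from the mitochondrial genome was 25.1% ± 2.43 in OE and 26.8% ± 2.64 in WT hearts (SD, n = 4), a difference of -1.69 percentage points (exact permutation test, two-sided p = 0.371, the smallest possible being 0.0286).

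Of 32 tested collagen and fibrillar matrix genes of the scar 4 fell and 0 rose, beside 2.09% of all genes tested called lower. All 4 calls were lost with scaling by library totals, and the median log2 fold change was -0.35, with 30 of 32 below 0. Fbn1, fibrillin 1 of elastic fibres, fell by 0.73 ± 0.17, with OE replicate 2 at 946 above WT replicate 2 at 919. Col4a1 and Col4a2, collagens of basement membrane whose annotated genes overlap, fell by 0.37 ± 0.10 and 0.42 ± 0.11, and Loxl2, which crosslinks collagen, by 0.72 ± 0.19. Col1a1, the main fibrillar collagen, was at 4434, 2748, 4082 and 3428 in WT MI replicates 1 to 4 and 3626, 3846, 1996 and 1826 in OE MI replicates 1 to 4, so that the groups overlapped (log2 fold change -0.44 ± 0.23, not called). The 26 matricellular genes gave 0 calls, with a median log2 fold change of -0.37; Postn, periostin of activated fibroblasts, had -0.57 ± 0.27. Fbn1 was not called without WT replicate 1 or 3 or OE replicate 3 (up to 0.0793), Loxl2 without any library but WT replicate 2 or OE replicate 2 (up to 0.127), Col4a1 without WT replicate 1 or 3 or OE replicate 1, 3 or 4 (up to 0.16) and Col4a2 without WT replicate 1 or 3 or OE replicate 1, 2 or 3 (up to 0.127).

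Adamts8, a secreted protease of the ADAMTS family, belongs to the list of metalloproteinases and their inhibitors: it was at 94.6, 117, 127 and 56.5 in WT MI replicates 1 to 4 and 12.8, 9.42, 32.8 and 23.1 in OE MI replicates 1 to 4. It was the 1 of 23 tested genes of that list that was called, a fall (2.37 ± 0.53, limma adjusted p = 0.0132). Its call was lost in 5 of 23 alternatives, with an adjusted p of 0.0531 without OE replicate 2 and of up to 0.177 in female hearts alone. In whole hearts fewer cells of a type and less RNA per cell cannot be told apart, and this holds for each marker list here. Fibroblast markers gave 0 calls among 14 tested, with a median log2 fold change of 0.00 and a summed level of 59594 to 78129 in WT and 63926 to 79560 in OE hearts.

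Markers of other cell types gave calls in some lists, to be read beside the 2.09% of all genes tested called lower and 1.2% called higher. Of 14 markers of resident cardiac macrophages 3 fell and 0 rose (median log2 fold change -0.44): Timd4, a receptor for dying cells, by 1.21 ± 0.27, Cbr2 by 0.51 ± 0.13 and F13a1 by 0.55 ± 0.15. Csf1r, the receptor for the macrophage growth factor, was the 1 of 23 general macrophage genes called, a fall of 0.49 ± 0.13, while 22 of the 23 had log2 fold changes below 0. The summed level of the resident markers was 6443 to 8770 in OE and 8118 to 10704 in WT hearts. These calls were sensitive to single libraries: Timd4 lost its call without WT replicate 3 or OE replicate 3 (up to 0.0542), Cbr2 without WT replicate 3 or 4 or OE replicate 1 or 3 (up to 0.0978), F13a1 without any library but WT replicate 2 or OE replicate 2 or 4 (up to 0.183) and Csf1r without any but WT replicate 2 or OE replicate 2 (up to 0.16).

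Of 21 genes listed as endothelial markers 3 fell, 1 of which, Angpt1, is not a marker of endothelium itself. Angpt1, a ligand of the TIE2 receptor made by muscle and mural cells, was at 1065, 843, 1071 and 872 in WT MI replicates 1 to 4 and 343, 319, 343 and 366 in OE MI replicates 1 to 4, a tight and full separation (a fall of 1.48 ± 0.26, limma adjusted p = 0.00177). Apln and Eng fell by 0.88 ± 0.22 and 0.29 ± 0.08; Apln was not called without WT replicate 1, 2 or 3 or OE replicate 1, 2 or 3 (up to 0.0994), nor Eng without any library but WT replicate 2 (up to 0.166). Of 14 genes listed as mural cell markers Des and Acta2 fell and Vtn rose (0.32 ± 0.09). In which cells the listed genes changed was not tested. Des was not called without OE replicate 1 (0.0571), nor Vtn without any library but WT replicate 2 (up to 0.122). No list of other blood or stromal cell types gave a call: 0 were called among 19 lymphocyte, 6 neutrophil, 6 mast cell, 12 epicardial, 12 adipocyte, 10 Schwann cell and 8 erythroid genes by limma.

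The signalling lists held few changes. Of 12 tested ERBB receptors and ligands 0 were called by limma. Egf had a log2 fold change of -0.77 ± 0.23 (limma adjusted p = 0.0624) and Tgfa of 0.69 ± 0.24 (limma adjusted p = 0.121). Egf was called lower in 3 of 23 alternatives, DESeq2 among them, and was among the changed genes that the authors deposited. Of 20 ERK targets and feedback inhibitors 0 were called, and of 30 cell cycle genes 0, the latter with a median log2 fold change of -0.24. Among YAP and TEAD targets 1 of 20 rose, Arhgef17 (0.39 ± 0.09), and 1 fell, Ankrd1. In the TGF-beta list Smad3 rose by 0.35 ± 0.09 and Tgfb1 fell by 0.31 ± 0.08, both lost when 1 of several libraries was left out (up to 0.0827 for Smad3, without WT replicate 2, 3 or 4 or OE replicate 1 or 3, and 0.141 for Tgfb1, without any but WT replicate 2). Among the 15 rises with the smallest p, Grb2, which links receptors to RAS, rose by 0.34 ± 0.05, Socs7 by 0.57 ± 0.08 and Lrig1, which promotes loss of ERBB receptors, by 0.39 ± 0.07. In the circadian list 1 of 22 rose, Hlf (0.40 ± 0.09), and among 19 cell cycle inhibitors and p53 targets Ccng1 fell (0.30 ± 0.08). The 0 calls in the lists of antioxidant genes (29 tested), ATF4 and unfolded protein response genes (23), antigen presentation genes (15), interferon-stimulated genes (25) and chemokines (23) were also by limma. Left-out libraries also ended the calls of Hlf (up to 0.0824, without WT replicate 1 or 3) and Ccng1 (up to 0.127, without any but WT replicate 4 or OE replicate 4). Over all 42 lists, 58 of 821 genes tested were called, 9 higher and 49 lower, beside 3.28% of all genes tested. Because earlier results of these data were known when the lists were chosen, these shares do not test the lists. Of all genes called in this comparison, 36.5% were higher under the authors' factors and 73.3% with scaling by library totals. The balance of falls and rises therefore rests on the scaling.

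**Figure D4:**
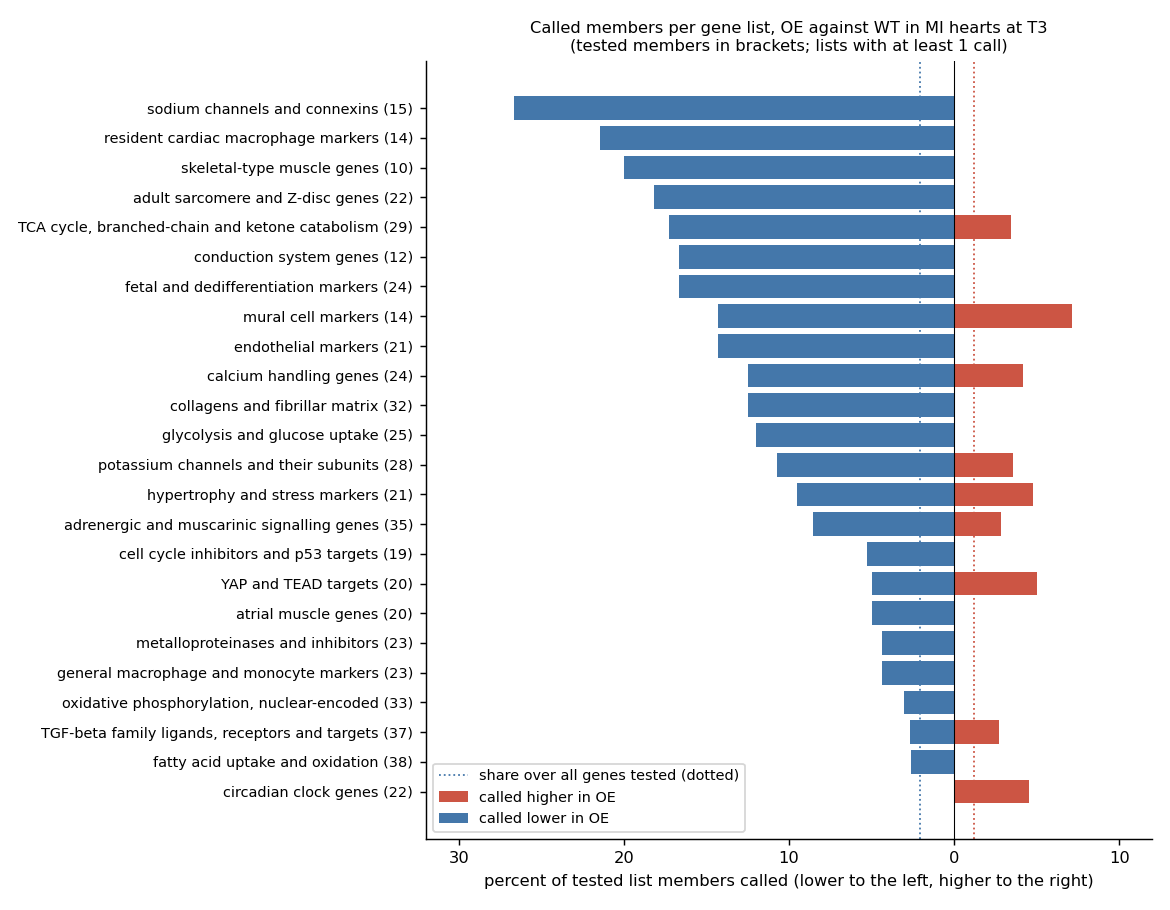
Percent of tested members called higher (red, right) or lower (blue, left) in OE than in WT MI hearts at T3, for the lists with at least 1 call, with the number tested in brackets. Dotted lines mark the shares over all genes tested, 1.2% higher and 2.09% lower; sodium channels and connexins reach 4 of 15.

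Further genes were named for a small p or for a large change without overlap, so that a clear gap between the groups follows from the choice. Socs7 was at 559 to 614 in WT and 802 to 910 in OE hearts, Vwa7 at 240.2 to 340 and 454 to 485, and Ubb, a polyubiquitin gene, at 1002 to 1124 and 1416 to 1588. Chmp4c, of membrane scission, Wfs1, of the endoplasmic reticulum, Eid1 and Echdc2 rose by 0.42 to 0.48. Among falls, Ehd4, of endosome recycling, was at 9485 to 11120.1 in WT and 6136 to 6717 in OE hearts, Mid1ip1, which activates acetyl-CoA carboxylase, at 1797 to 2545 and 1084 to 1232, and Cep128, of the centriole, at 191 to 274 and 99.3 to 112. Cds1, of phospholipid synthesis, fell by 1.50 ± 0.21, Ddah1, which breaks down an inhibitor of nitric oxide synthase, by 1.28 ± 0.18, Trabd2b, which cleaves WNT proteins, by 0.81 ± 0.12, Fbxl22, of the Z-disc, by 0.93 ± 0.12 and Ivns1abp by 0.79 ± 0.11. Low genes with large changes included Crybb1 and Shisa6, with 20.03 to 29.1 against 1.85 to 11.1 and 0.91 to 7.28 against 12.2 to 33.2 in OE and WT hearts. The neuropeptide gene Tac1 and the dopamine receptor gene Drd2 fell by 1.63 ± 0.34 and 1.57 ± 0.33, and Fam169a by 2.37 ± 0.44. Of the further genes with the largest changes, Lrrc4b fell by 1.49 ± 0.36 and Dok5 and Alx4 rose by 1.29 and 1.14, and their calls were lost without WT replicate 3 or OE replicate 2, 3 or 4 for Lrrc4b (up to 0.0972), WT replicate 4 for Dok5 (0.0531) and WT replicate 1 or 4 or OE replicate 2, 3 or 4 for Alx4 (up to 0.0813).

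Kcnip2 and Adra1a also fell in uninjured hearts of the same time. Of the 510 genes, 295 were called in sham hearts at T3, where 2036 genes (13.1%) were called, 6.54% of those tested higher and 6.57% lower, that is 57.8% of the first list and 14.5% of the other, and 294 of the 295 had the same direction. Atrial genes differed between the sham groups too: Myl7 was at 488 ± 228 in OE (SD, n = 3) and 4205 ± 1703 in WT hearts (n = 4), Sln at 144 ± 58.0 and 1231 ± 435, and 11 of 20 tested atrial genes were called lower in OE sham hearts, and their part in the sham counts was not tested. The log2 fold change in sham hearts was -2.13 for Kcnip2, -1.50 for Adra1a, 2.20 for Slc17a7, 5.52 for Dpy19l2, -0.86 for Gja1 and -0.84 for Tpm1. Among the 295 the exception in direction was Akap5, with 0.74, and of all 510 genes 41 had the opposite sign in sham hearts. Of the 510, 109 were called in MI hearts at T2, where 242 (1.56%) were, 0.406% of those tested higher and 1.15% lower, or 21.4% of the first list and 45.0% of the other, all in the same direction. All 3 comparisons called 72 genes, 20 higher and 52 lower.

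**Figure D5:**
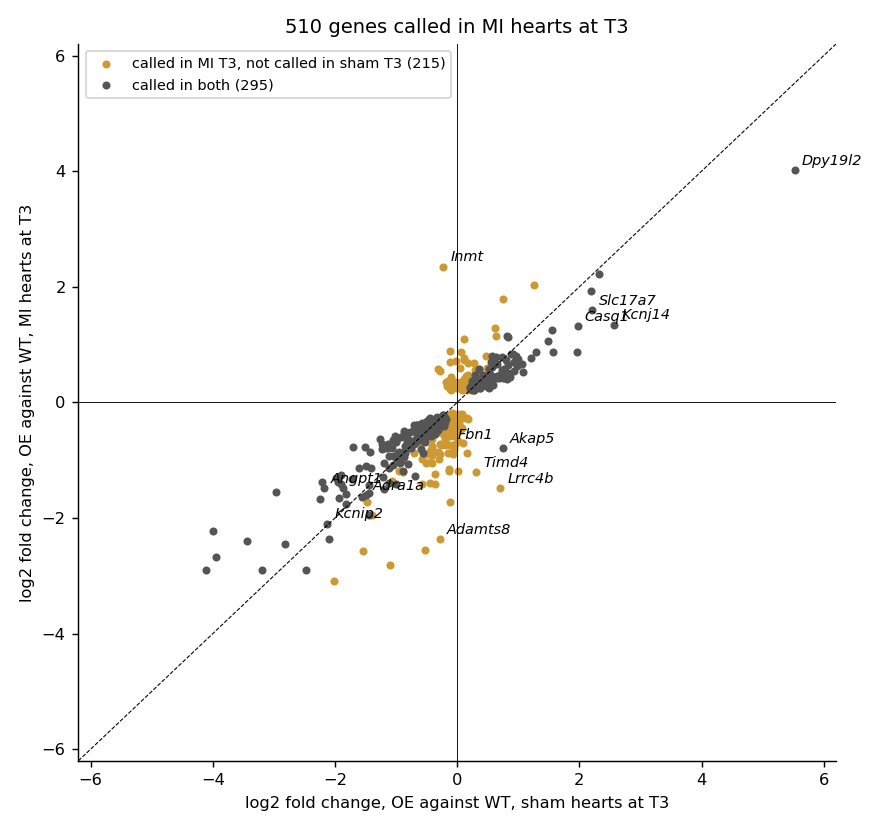
Log2 fold change of OE against WT in MI hearts at T3 (vertical) against that in sham hearts at T3 (horizontal) for the 510 genes called in MI hearts, with no library shared; the dashed line marks equal change. The 295 genes called in both are grey and lie in the same quadrants except Akap5; Inmt, at -0.23 in sham and 2.35 in MI hearts, lies apart.

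At T3 the change of Inmt differed between injured and uninjured hearts. Its normalized count in sham hearts at T3 was 316 ± 89.9 in WT (SD, n = 4) and 265 ± 48.1 in OE (n = 3), and the groups overlapped (log2 fold change -0.23). The interaction, the change in MI minus that in sham hearts, was 2.58 on the log2 scale (limma adjusted p = 0.00238), and Inmt was the 1 gene of 15533 called for it (0.00644%), with 1665 at an unadjusted p under 0.05. Over 29 alternatives its adjusted p ranged from 9.16e-09 to 0.15 and it was called in 27; with the T3 groups fitted alone the p was 0.106, and 0 genes were called. The number of genes called for the interaction was 110 with DESeq2 on the recovered reads and 1 with edgeR. In MI hearts at T2 Inmt was at 465 ± 131 in WT and 2440 ± 408 in OE hearts (n = 3 each, log2 fold change 2.41). In sham hearts at T2 it was at 557 ± 165 in WT and 3217 ± 423 in OE hearts (n = 4 each), a gap as in MI hearts of that time, so that the difference between MI and sham is a statement on T3 alone.

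Some genes were called in MI hearts at T3 and at T2 while their unadjusted p in sham hearts was over 0.05; there were 29, 7 higher and 22 lower, picked by these values, and except for Inmt none passed the test of the difference between MI and sham. Examples, chosen after their values were seen, follow. Vcan, the proteoglycan versican, had a log2 fold change of -0.73 ± 0.20 at T3 and -0.97 at T2, beside -0.20 in sham hearts. Cd248, a surface protein of stromal cells, had -0.51 ± 0.14, -0.997 and -0.04. Duox1, an oxidase, had -1.73 ± 0.41, -2.36 and -0.11. Between T3 and T2, the change in MI hearts differed for 0 genes by limma, with 551 at an unadjusted p under 0.05 and 2 called with DESeq2 and 0 with edgeR.

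The number of genes called in MI hearts at T3 rested on single libraries and on the libraries that set the spread. It was 299 without WT replicate 3, 316 without WT replicate 1 and 323 without OE replicate 1, and up to 598 otherwise. When the 8 libraries were fitted alone, 146 genes were called, 137 of them among the 510. Calls lost in that fit, though kept whichever of the 8 libraries was left out, included Slc17a7, Kcne1, Pdlim5, Myoz2, Ckm, Drd2, Ivns1abp, Crybb1 and Fam169a. Of the 90 called genes that the naming rule selects, 50 remained called whichever of the 8 libraries was left out, and 17 under every one of 23 alternatives: Kcnip2, Inmt, Adra1a, Dpy19l2, Gja5, Socs7, Ptk2b, Ubb, Lpl, Tpm1, Mid1ip1, Ehd4, Acss1, Cds1, Fbxl22, Cep128 and Trabd2b.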

How the data were processed

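Whole hearts, perfused, frozen and powdered, were profiled by poly A RNA sequencing, per the labels' protocols. Tools listed, without version or role, per the submitters' processing notes, were HTSeq, DESeq2, STAR and cutadapt, and the build listed was GRCm38. The deposited signal per gene is a read count divided by 1 factor per library, for 29 libraries of T2 and T3 in 8 groups normalized together. The authors deposited beside it a log2 fold change, an adjusted p-value, a score holding the largest count, and other values, the limits of their calls (adjusted p 0.05, fold 1.5, count 30).

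Only values up to a set read count were checked for being whole reads, and in all 29 libraries 100% of these were, within 0.1 reads. Higher values were rounded to whole reads without this check. With limma 3.58.1 (R 4.3.3), log2(value + 1) of genes with at least 10 in 3 libraries (15533) was fitted with a mean for each of the 8 groups over all 29 libraries, with a trended, robust spread, and p was adjusted by Benjamini-Hochberg over all genes. Counts were tested as alternatives with edgeR 4.0.16 and DESeq2 1.42.0. Depth was 14199741 to 18590577 reads per library. Replicates differed beyond sampling noise (lowest chi-square per gene 8.79 over 12 pairs). Named genes were Erbb2, Kcnip2, Inmt and Adra1a, the 15 each way with the smallest p, the 10 each way with the largest change and no overlap, and up to 4 called members of each list. Members and lists were chosen with earlier results of these data known. Some genes that this rule selects are not reported here. Hearts taken during the overexpression were not used here.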

Additional observations from a re-analysis of the deposited data

Results flagged for a closer look

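Inmt changed differently in injured and sham hearts: its log2 fold change in MI hearts exceeded that in sham hearts at T3 by 2.58 (limma interaction adjusted p = 0.00238). In 292 groups of 4 libraries, 18 held a library far from the other 3 by Dixon's ratio; chance flags about 1 in 20 groups. Thymus genes stood out in OE MI replicate 1 (Rag1 727, Dntt 295, Prss16 269) and in WT MI replicate 2 (Rag1 176, Dntt 69.4, Prss16 111). The highest normalized count stood apart for Bmp10 (2690), Arhgef17 (2510) and Ccnd1 (936) in OE MI replicate 4, for Cep128 (112) in OE MI replicate 1, for Smad3 (460) in WT MI replicate 1, for Wfs1 (2440) in WT MI replicate 2, and for Lrrc4b (500) and Eno1b (45.0) in WT MI replicate 3. The lowest stood apart for Eid1 (736) in OE MI replicate 4, Hdc (29.1) in OE MI replicate 3, Grb2 (1190) in WT MI replicate 1 and Postn (1840) in WT MI replicate 2.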

How the results depend on the processing

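In MI hearts at T3, 510 genes were called, and 439 to 738 with other pseudocounts, filters, library weights, scalings, edgeR, DESeq2, sex as a covariate or without the libraries with Rag1. The count was 146 with the compared groups fitted alone, 233 with Myl7 as a covariate, 150 in female hearts, and 299 to 598 with 1 library left out. In sham hearts (2036) it was 3345 with library weights and 767 to 2069 with 1 library left out: 767 without OE replicate 3, 1099 without OE replicate 1 and 1344 without WT replicate 3. In MI hearts at T2 (242) it was 596 with library weights, 54 with the compared groups alone, 452 with DESeq2 and 69 to 211 with 1 library left out: 69 without OE replicate 4, 109 without OE replicate 3, 121 without WT replicate 2 and 133 without WT replicate 3. With library totals the share called higher was 78.7% against 49.9% in sham hearts and 61.6% against 26.0% in MI hearts at T2. For the interaction (1) it was 163 with library weights, 0 with the compared groups alone, 110 with DESeq2, 2 with sex as a covariate and 1 to 45 with 1 library left out. For T3 minus T2 (0) it was 2 with DESeq2 and 0 to 0 with 1 library left out. WT MI against sham at T3 (2317) gave 3807 with library totals and 1304 to 2654 with 1 library left out. The difference in mitochondrial share was -2.53 to -0.54 percentage points with 1 library left out. Replicate numbers did not pair the samples (same-number correlations -0.20 to 0.17, 1 of 4 best with its own number); with the replicate block the counts were 43 in MI and 858 in sham hearts at T3, 0 for the interaction and 1 for T3 minus T2. The log2 fold change changed sign for Ms4a1 (-1.52 to 0.0716 with 1 library left out, above 0 without OE replicate 3) and, in female hearts, for Mmp9 (0.19), H2-Eb1 (0.35) and H2-DMb1 (0.17), none of them called. The causes were not tested.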
